A study of Mus musculus with 26 samples.

Results

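The region described here is a 10 Mb stretch of mouse chromosome 15, from 60 to 70 Mb on mm10, that carries the proto-oncogene *Myc* and the long non-coding RNA *Pvt1*. The 10 genes *Fam84b*, *Myc*, *Pvt1*, *Fam49b*, *Asap1*, *Efr3a*, *Phf20l1*, *Ndrg1*, *Zfat* and *Khdrbs3* were followed, out of 24409 genes with an expression value and out of 39 that lie in the stretch. They were chosen by name after a shared rise of genes in this stretch had been seen in the same RNA-seq libraries, so their differences between genotypes are given as a description, and nothing is read from where they stand against the threshold. Embryonic stem (ES) cells were compared that were wild type (WT, 3 RNA libraries) or homozygous for a zygotic deletion of *Zfp57* (KO, 2 RNA libraries), all male and of the strain C57BL/6J. The mutant allele disrupts the coding exons for the KRAB domain and zinc fingers. The lines were derived from blastocyst-stage embryos and kept in N2B27 medium with LIF and inhibitors of Erk and Gsk3 (2i), for at most 15 passages, at matched passage number. RNA was depleted of ribosomal RNA and read in pairs of 150 bp. Each library is named for its own numbered ES cell sample, and a difference between genotypes cannot be told apart from a difference between the few lines that stand for them. ZFP57 ChIP-seq was made in 3 WT and 2 KO samples of the same background, and bound sites are those called in at least 2 of the 3 WT samples. A second peak list, named for hybrid lines, was also used.

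ZFP57 is a KRAB zinc finger protein that recognises the methylated hexanucleotide TGCCGC and recruits the co-repressor KAP1, and is best known for keeping the marks of imprinted genes after fertilisation. *Myc* encodes a basic helix-loop-helix transcription factor that pairs with MAX at E-boxes and raises the transcription of genes for ribosome building, nucleotide synthesis and cell cycle entry. *Pvt1* is transcribed just downstream of *Myc* and is known as its non-coding neighbour in a segment that is often gained in tumours. In ES cells MYC and its relative MYCN sustain growth, and 2i medium with LIF is known to hold *Myc* at a low level.

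The paper called the peaks of the C57BL/6J lines at a stringent cutoff from uniquely aligned reads. It reports further peaks with multimapped reads and weaker ones under the cutoff, so a place without a listed peak may still be bound. In the lists used here ZFP57 occupied the stretch at 1 site. This peak covered 334 bp at chr15:66049957-66050290 and lay in an intron of *Kcnq3*, a potassium channel gene transcribed from the minus strand, overlapping no annotated exon. The longer peak list, of 1423 sites from C57BL/6J lines, contained it, and the shorter one of 743 sites, named for hybrid lines, did not. All 743 sites of the shorter list were also in the longer one, so the lists are not taken as independent. Of 55 peaks on chromosome 15, 25 were in the shorter list. The samples include no ZFP57 ChIP-seq from hybrid lines. Presence in or absence from the shorter list is therefore not read as binding, or its lack, in hybrid cells. The first 200 bases of the peak, from the plus strand of GRCm38 (mm10), are shown because they hold its single TGCCGC hexanucleotide, in capitals.

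Peak in *Kcnq3*, chr15:66049957-66050156: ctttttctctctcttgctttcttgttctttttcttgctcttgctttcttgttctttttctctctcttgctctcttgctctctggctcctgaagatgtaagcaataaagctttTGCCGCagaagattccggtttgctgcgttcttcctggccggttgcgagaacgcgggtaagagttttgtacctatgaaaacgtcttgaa

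The hexanucleotide began at position 66050069, and 53.0% of the peak's bases, its first 177, were soft-masked as repeat in the genome sequence. Among all peaks, 65.6% had 50% or more of their bases soft-masked, and 92.0% held the hexanucleotide on either strand. The peak had 8 CpG dinucleotides and a GC content of 40.1%. The next peaks on either side lay outside the stretch, and the sequence around the first hexanucleotide of each is given for comparison, with GCGGCA, the same motif on the opposite strand, in capitals.

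Left neighbour, chr15:59161689-59161754: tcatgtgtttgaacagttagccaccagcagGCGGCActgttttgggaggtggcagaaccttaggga

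Right neighbour, chr15:72809683-72809742: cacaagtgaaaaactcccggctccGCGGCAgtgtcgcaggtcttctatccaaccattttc

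The left peak, of 269 bp and with 2 copies of the motif, lay outside annotated genes and was absent from the hybrid list. The right peak, of 646 bp with 5 copies and 42 CpG dinucleotides, overlapped an exon of the imprinted non-coding RNA gene *Peg13*, itself inside *Trappc9*, and was in both lists. None of the 10 genes had a ZFP57 peak within 20 kb of its span, while 4.25% of 24288 placed genes did. None had a peak within 100 kb either, against 14.2% of placed genes. With shares this small, none among 10 is not read as a lack of peaks. The 10 are also neighbours measured to the same few peaks, not separate cases. *Efr3a* was nearest, 176145 bp from the *Kcnq3* peak, then *Phf20l1* at 527210 bp and *Ndrg1* at 879028 bp. *Myc* lay 2823478 bp and *Pvt1* 2876123 bp from the nearest peak, and the median over the 10 genes was 1828098 bp, against 598335 bp over all placed genes. Over 265 complete 10 Mb bins of the genome the median was 5 peaks, and 40 bins held at most 1.

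The genotype was visible in the *Zfp57* transcript itself, at 75.94, 72.34 and 70.55 FPKM in WT and 19.0 and 21.62 FPKM in KO (log2 difference −1.84, SE 0.06; adjusted p = 0.00023, limma). FPKM is a level in fragments scaled for transcript length and library size, and the depth behind it is not given in the sources used here. Log2 differences are KO minus WT on log2(FPKM + 0.1), which understates the change of weakly expressed genes, and a gene was called when its Benjamini-Hochberg adjusted p over 14617 tested genes was below 0.05. In this comparison 41.1% of the tested genes were called, with 18.8% higher in KO and 22.3% lower, and the median of all tested genes was −0.01. Chromosome 11 stood apart with a median of −0.47 over 1224 genes, chromosome 6 had 0.17 over 679, and the median of chromosome 15 was 0.05 over 565. Naive ES cell markers summed to 710 to 723 FPKM in WT and 778 to 845 FPKM in KO, and all 10 were expressed in both genotypes. Of these 10 markers 6 were called higher and 1 lower, 70% against 41.1% of all tested genes, among them *Tfcp2l1* (log2 difference 0.60, SE 0.04), *Klf4* (0.74, SE 0.10) and *Tbx3* (0.58, SE 0.12). *Dppa3*, a germ cell and naive state gene, was the lower one, at 24.21 to 36.97 FPKM in WT and 9.04 and 4.43 FPKM in KO (−2.30, SE 0.32). *Nanog*, on chromosome 6, was not called (−0.11, SE 0.04) but was called lower, at −0.27, with the median of its chromosome subtracted. Feeder fibroblast markers summed to at most 0.36 FPKM in any library, with *Col3a1*, *Lum* and *Dcn* listed at 0. Of the primitive endoderm list 1 of 4 tested genes was called, 25% against 41.1% of all tested genes. This was *Sox7*, higher, at 0.09, 0.15 and 0.11 FPKM in WT and 0.90 and 0.48 FPKM in KO, and the other 3 were not called. Of 5 tested trophectoderm markers 2 were called higher and 1 lower, 60% against 41.1%, with sums of 17.3 to 19.1 and 16.5 to 17.8 FPKM. Most of that sum was *Tfap2c*, called lower from a mean of 16.4 to 12.2 FPKM, whereas *Eomes* went from 0.50 to 2.27 FPKM and *Krt8* from 0.61 to 1.93 FPKM. Of 6 primed and mesendoderm markers 2 were called higher and 1 lower, 50% against 41.1%, with sums of 2.04 to 2.26 and 2.54 to 3.48 FPKM. The higher ones were *Fgf5* (log2 difference 1.57, SE 0.22) and *T* (1.02, SE 0.27), and the lower one *Pou3f1* (−0.76, SE 0.18). *Fgf5*, with a WT mean of 0.067 FPKM, reached the test level of 0.1 FPKM only through its KO mean of 0.395 FPKM. What part these shifts have in the values below was not tested.

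All 10 genes had a higher mean in KO than in WT, and in 9 of them both KO libraries lay above all 3 WT libraries, an arrangement found in 30.3% of all tested genes. The same 9 were past the threshold and higher in KO, beside 18.8% of all tested genes. Without KO sample 2 they were 6, *Myc*, *Phf20l1* and *Khdrbs3* no longer passing, and without KO sample 1 they were 7. Because the genes were selected on these differences, nothing is read from the gap between those shares.

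**Figure D1:**
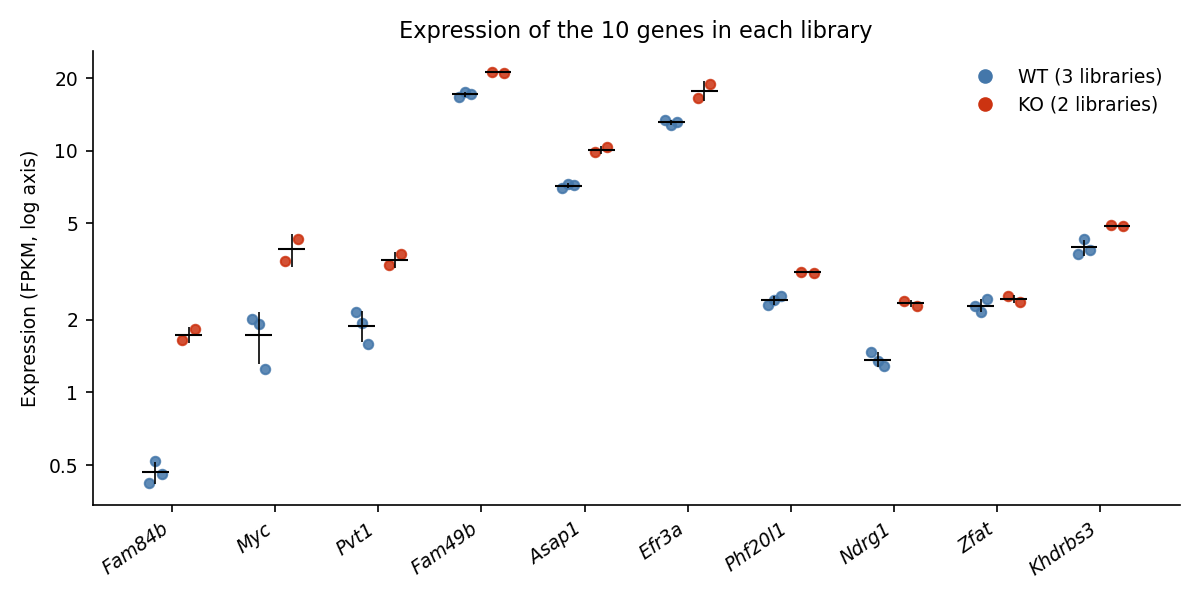
Expression of the 10 genes in chromosomal order, in FPKM on a logarithmic axis. Each point is 1 library (3 WT in blue, 2 KO in red), the horizontal lines are group means and the vertical lines ± 1 SD. The KO points lie above the WT points for every gene but *Zfat*, and the widest separation is that of *Fam84b*, from 0.42 to 0.52 FPKM in WT and 1.64 to 1.82 FPKM in KO.

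*Myc* (chr15:61985341-61990361, plus strand) had 2.02, 1.92 and 1.25 FPKM in the WT libraries and 3.49 and 4.33 FPKM in the KO libraries. WT sample 3 was the lowest of the 5 and KO sample 2 the highest, and the groups did not overlap. The WT mean was 1.73 ± 0.42 FPKM (SD, n = 3) and the KO mean 3.91 ± 0.59 FPKM (SD, n = 2), a 2.26-fold difference of means and a log2 difference of 1.15 (SE 0.22). Of the 10 genes *Myc* varied most within a genotype, with a coefficient of variation of 24.2% in WT and 15.2% in KO, against 2.17% to 14.9% for the others in WT.

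*Pvt1* (chr15:62037986-62260215, plus strand) starts 47624 bp beyond the end of *Myc* and spans 222230 bp. It had 2.15, 1.93 and 1.59 FPKM in WT and 3.36 and 3.72 FPKM in KO. The 5 libraries fell in the same order as for *Myc*, with WT sample 3 lowest and KO sample 2 highest, and again without overlap. The means were 1.89 ± 0.28 and 3.54 ± 0.25 FPKM, 1.87-fold apart, with a log2 difference of 0.88 (SE 0.14). The ratio of *Myc* to *Pvt1* FPKM was 0.94, 0.99 and 0.79 in WT and 1.04 and 1.16 in KO. *Pvt1* was thus the higher of the 2 in every WT library, and *Myc* in both KO libraries. *Macroh2a3*, a transcribed pseudogene on the opposite strand within *Pvt1*, listed as *H2afy3*, was at 0.02 FPKM or less throughout.

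*Fam84b* (chr15:60818996-60826105, minus strand; *Lratd2* in RefSeq), a gene of the LRAT domain family, lies 1159235 bp before *Myc*. It had 0.42, 0.52 and 0.46 FPKM in WT and 1.64 and 1.82 FPKM in KO. Every KO value was over 3 times every WT value, and its 3.71-fold difference of means was the largest of the 10, with a log2 difference of 1.69 (SE 0.14). It was also the weakest of the 10 in WT, above only 17.0% of tested genes. The overlapping non-coding gene *9930014A18Rik*, on the opposite strand, had 0.08, 0.10 and 0.05 FPKM in WT and 0.25 and 0.20 FPKM in KO. Its WT mean of 0.077 FPKM is below the test level of 0.1 FPKM, which it reached only through its KO mean of 0.225 FPKM. It was called higher by limma (log2 difference 0.89, SE 0.23; adjusted p = 0.024), and whether reads were counted by strand is not given in the sources used here, so reads in the stretch that the spans of *Fam84b* and this gene share may not have been told apart. This call was lost when any library other than WT sample 2 was left out.

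**Figure D2:**
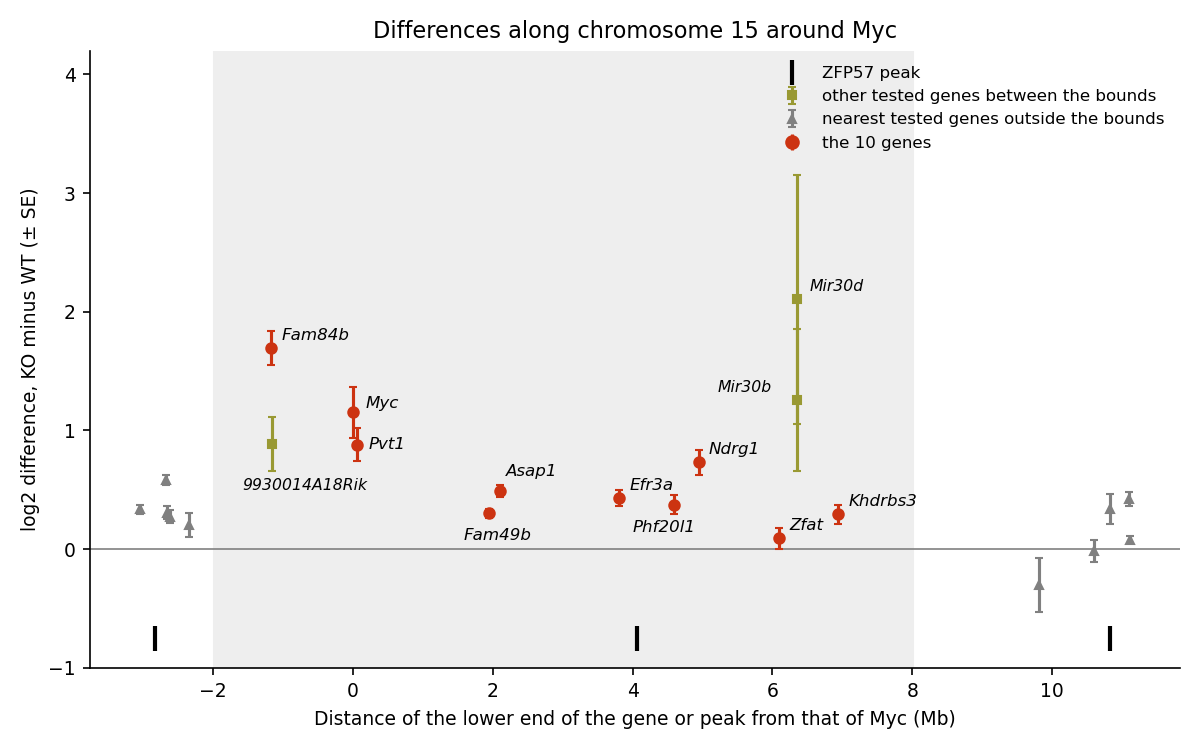
Log2 difference in FPKM (KO minus WT, ± SE) against the distance of each gene's lower coordinate from that of *Myc*, in Mb. Red circles are the 10 genes, squares the other 3 tested genes between the bounds (shaded), triangles the 5 nearest tested genes on each side, and black bars ZFP57 peaks. *Fam84b*, *Myc* and *Pvt1*, at the left, have the largest differences of the 10 genes, from 0.88 to 1.69, and *Zfat* at 0.09 the smallest.

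Beyond *Pvt1* follow 1668878 bp without a gene at the tested level, and then *Fam49b* and *Asap1*, 26061 bp apart. *Fam49b* (chr15:63929094-64060778, minus strand; *Cyrib* in RefSeq), whose product binds RAC1 and restrains actin branching, had 16.71, 17.44 and 17.19 FPKM in WT and 21.25 and 20.97 FPKM in KO. It was the most abundant of the 10 in both genotypes, with a KO mean 1.23-fold that of WT (log2 difference 0.30, SE 0.04). *Asap1* (chr15:64086840-64382941, minus strand) encodes an ARF GTPase-activating protein of adhesion sites. It had 6.99, 7.30 and 7.2 FPKM in WT and 9.85 and 10.39 FPKM in KO, a ratio of means of 1.41 and a log2 difference of 0.49 (SE 0.05). In both genes the spread within a genotype was small, with WT coefficients of variation of 2.17% and 2.21%.

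*Efr3a* (chr15:65787020-65873812, plus strand) encodes a plasma membrane anchor of the phosphatidylinositol 4-kinase complex. It had 13.42, 12.84 and 13.11 FPKM in WT and 16.58 and 18.94 FPKM in KO. Its gain of 4.64 FPKM was the largest of the 10 in absolute terms, though its ratio of means was 1.35 (log2 difference 0.43, SE 0.06). *Kcnq3*, the host of the ZFP57 peak and a little further along the chromosome, was at 0.05 FPKM or less in all 5 libraries.

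*Phf20l1* (chr15:66577500-66647043, plus strand) encodes a reader of methylated lysine. It had 2.30, 2.42 and 2.5 FPKM in WT and 3.16 and 3.13 FPKM in KO, 1.31-fold apart in the mean (log2 difference 0.37, SE 0.08). *Ndrg1* (chr15:66929318-66969641, minus strand) is a stress-response gene of the NDRG family and is known to be repressed by MYC. It had 1.47, 1.35 and 1.28 FPKM in WT and 2.39 and 2.28 FPKM in KO. In *Ndrg1* the ratio of means was 1.71 and the log2 difference 0.73 (SE 0.10), the fourth largest of the 10, so that *Myc* and a gene it is known to repress were both higher in the KO libraries.

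*Zfat* (chr15:68083714-68258922, minus strand), a zinc finger gene with roles in blood and immune cells, had 2.27, 2.15 and 2.43 FPKM in WT and 2.5 and 2.37 FPKM in KO. Its groups overlapped, KO sample 2 lying below WT sample 3, and its log2 difference was 0.09 (SE 0.09). *Khdrbs3* (chr15:68928392-69101794, plus strand) encodes an RNA-binding splicing regulator. It had 3.72, 4.32 and 3.90 FPKM in WT and 4.92 and 4.87 FPKM in KO, 1.23-fold apart (log2 difference 0.29, SE 0.08). *Zfat* and *Khdrbs3* are the last genes of the 10 along the chromosome. The log2 difference of *Khdrbs3* was within its SE of that of *Fam49b*.

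By level, the order in WT was *Fam49b*, *Efr3a*, *Asap1*, *Khdrbs3*, *Phf20l1*, *Zfat*, *Pvt1*, *Myc*, *Ndrg1* and *Fam84b*, from 17.1 to 0.47 FPKM. Neighbours from *Phf20l1* to *Ndrg1* had overlapping ranges and cannot be ordered, while the others were apart. In KO *Myc*, at 3.91 FPKM, and *Pvt1*, at 3.54 FPKM, had passed *Phf20l1* and *Zfat*, and *Myc* and *Pvt1* overlapped each other, as did *Zfat* and *Ndrg1*. The 4 genes lowest in WT (*Fam84b*, *Ndrg1*, *Myc* and *Pvt1*) were the 4 with the largest ratios, which share the WT mean as denominator. KO sample 2 exceeded KO sample 1 in 5 genes, all among the first 6 along the chromosome (*Fam84b*, *Myc*, *Pvt1*, *Asap1* and *Efr3a*), and was the lower in the other 5.

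Between the bounds 39 genes had a row in the FPKM table, and 13 passed the level of 0.1 FPKM required for testing. All protein-coding genes among these 13 belong to the 10. The rest were *9930014A18Rik* and the microRNA genes *Mir30b* and *Mir30d*, whose products belong to the miR-30 family. *Mir30b* had 0.19, 0.35 and 0.82 FPKM in WT and 0.60 and 1.89 FPKM in KO (log2 difference 1.26, SE 0.60; adjusted p = 0.14, limma). *Mir30d* had 0, 0.83 and 1.20 FPKM in WT and 1.86 and 2.21 FPKM in KO (log2 difference 2.11, SE 1.05; adjusted p = 0.16). Neither passed the threshold, and both spans are shorter than 1 read of 150 bp. The difference of *Mir30b* was 2.01 without KO sample 1 and 0.50 without KO sample 2. That of *Mir30d* was 0.95 without WT sample 1, where it passed the threshold. The other 26 genes, among them the gasdermin C genes and *Adcy8*, reached at most 0.11 FPKM in any library, and 15 were listed at 0 in all 5.

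All 13 tested genes had a higher mean log2 level in KO, beside 48.4% of all tested genes, and their median log2 difference was 0.73. Over the 10 genes alone the median was 0.46, the other 3 having differences of 0.89 to 2.11. Of these 3, *9930014A18Rik* reached the test level only through its KO values, so its place among the 13 favours a rise. Taken library by library, the median over the 13 genes against the WT mean was 0.50 in KO sample 1 and 0.70 in KO sample 2. Each WT library set against the other 2 gave −0.05, 0.04 and −0.002. The stretch was chosen for the rise in these KO libraries, so their place above WT is given by the choice.

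**Figure D3:**
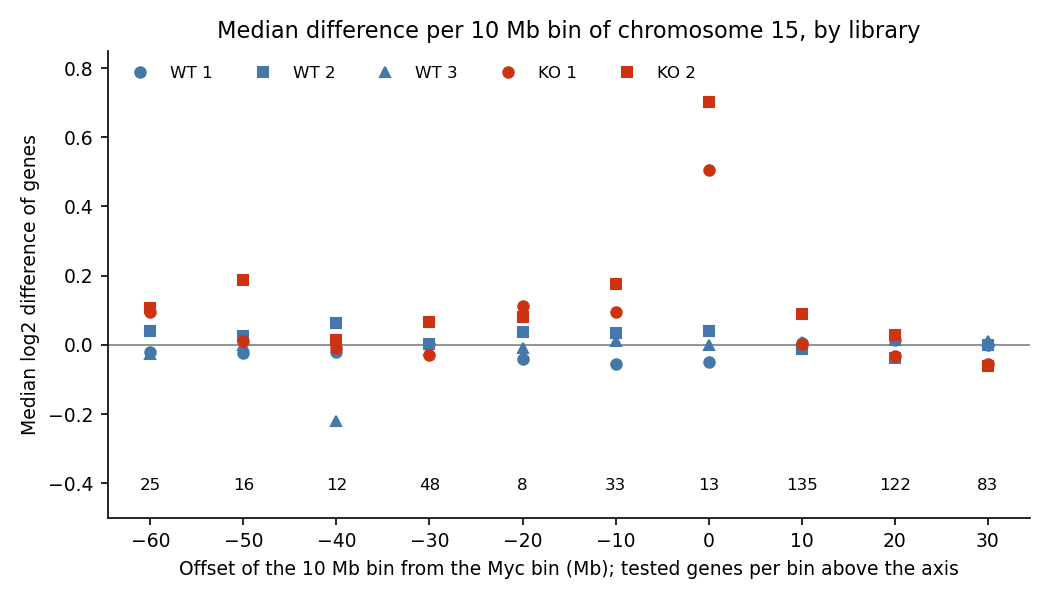
Median log2 difference of the tested genes in each complete 10 Mb bin of chromosome 15, by library, against the offset of the bin from that holding *Myc*. KO libraries (red) are set against the WT mean, and each WT library (blue) against the other 2. The numbers above the axis are the tested genes per bin. KO samples 1 and 2 reach 0.50 and 0.70 in the *Myc* bin and lie between −0.06 and 0.19 in the other bins.

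The rest of chromosome 15, with 552 tested genes, had a median of 0.04, with 118 genes called higher and 91 lower. Over all tested genes of the genome 18.8% were called higher and 22.3% lower. In KO samples 1 and 2 its medians were −0.001 and 0.08. Among the 242 bins of the genome with at least 10 tested genes, the bin of *Myc* ranked the second by its median and was the single bin in which all tested genes were higher in KO, a place that the choice of the stretch had already used. Just outside on the left, *Mtss1*, *Sqle* (squalene epoxidase of cholesterol synthesis), *E430025E21Rik* and *Nsmce2* were called higher, at log2 differences from 0.27 to 0.58 and adjusted p from 0.00043 to 0.0079 (limma). *Trib1*, between them and *Fam84b*, had 3.13, 2.80 and 2.61 FPKM in WT and 3.10 and 3.48 FPKM in KO and was not called (adjusted p = 0.17). On the right the nearest tested gene, *Col22a1*, lay over 1 Mb beyond the bound with a log2 difference of −0.30 (SE 0.23), and *Trappc9* next to it had −0.02 (SE 0.09). *Peg13*, which carries the neighbouring ZFP57 peak, had 0.34 (SE 0.13; adjusted p = 0.080). Of the 5 nearest on that side *Chrac1* alone was called, with 0.42 (SE 0.06; adjusted p = 0.0028).

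*Myc* is 1 of 3 family members expressed in these cells, and the smallest contributor in WT. *Mycn*, its chief relative in early embryonic cells, had 19.45, 22.75 and 20.03 FPKM in WT and 19.06 and 17.21 FPKM in KO, and was not called (log2 difference −0.19, SE 0.08; adjusted p = 0.11, limma). *Mycl*, the third member, had 2.46, 2.44 and 2.63 FPKM in WT and 1.72 and 1.73 FPKM in KO, and was called lower (log2 difference −0.52, SE 0.09; adjusted p = 0.0054). The 3 together summed to 23.93, 27.11 and 23.91 FPKM in WT and 24.27 and 23.27 FPKM in KO, and these sums overlapped between the genotypes. The share of *Myc* in the sum averaged 6.92% ± 1.61 (SD, n = 3) for the WT libraries and 16.5% ± 2.99 (SD, n = 2) for the KO libraries. That of *Mycn* averaged 83.0% ± 1.48 and 76.3% ± 3.23.

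**Figure D4:**
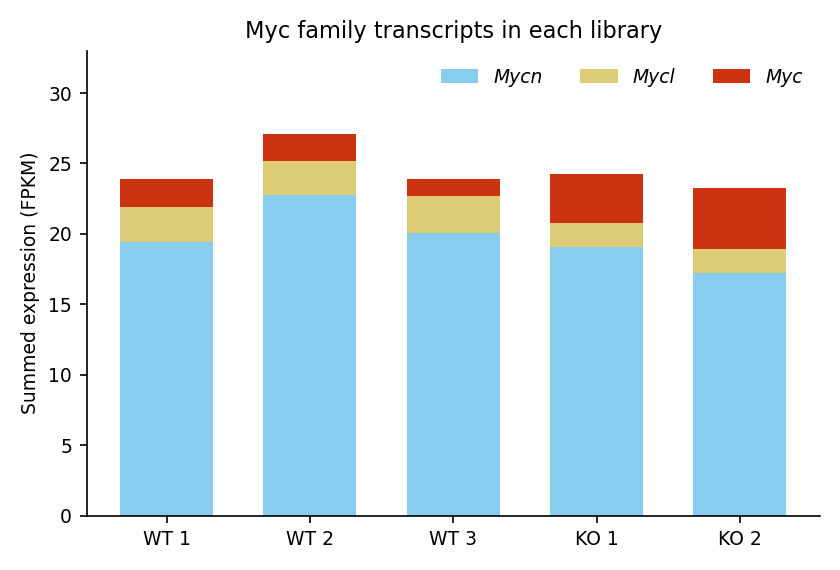
Summed FPKM of *Mycn* (light blue), *Mycl* (yellow) and *Myc* (red) in each of the 3 WT and 2 KO libraries. The sums lie between 23.3 and 27.1 FPKM in all 5 libraries, and the *Myc* part is 1.25 to 2.02 FPKM in WT and 3.49 to 4.33 FPKM in KO.

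Partners, antagonists and cofactors of MYC were then examined, 18 tested genes besides *Myc*. Of these, 2 were higher and 6 lower past the threshold, 44.4% against 41.1% of all tested genes, with a median log2 difference of −0.10. *Max*, the obligate partner, had 21.78, 21.28 and 22.49 FPKM in WT and 21.52 and 22.60 FPKM in KO, with a log2 difference of 0.01 (SE 0.04). The antagonists *Mxi1* (log2 difference −0.54, SE 0.08), *Mnt* (−0.31, SE 0.05) and *Mxd4* (−0.83, SE 0.21) were called lower, as were *Mlx* (−0.46, SE 0.06) and its glucose-sensing partner *Mlxipl* (−2.5, SE 0.21). *Mlxipl* fell from 2.07, 1.64 and 2.18 FPKM to 0.34 and 0.20 FPKM. *Mxd4*, at 0.08 and 0.06 FPKM in KO, reached the test level of 0.1 FPKM only through its WT mean of 0.20 FPKM. *Mnt* and *Mlx* lie on chromosome 11, and with the median of each chromosome subtracted their differences were 0.17 and 0.016 and neither was called. The cofactors *Ruvbl1* (0.25, SE 0.03) and *Wdr5* (0.16, SE 0.04) were called higher, *Ruvbl1* losing its call under that subtraction and *Wdr5* when any library but KO sample 1 was left out or limma was run without a trend. The call of *Mxd4* was lost without WT sample 1, WT sample 2 or KO sample 2, and under the pseudocounts and exclusions tried its difference lay between −1.41 and −0.17.

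Genes known to be activated by MYC did not move in a single direction. Of 25 tested genes 7 were called higher, 5 lower and 13 not at all, 48.0% called against 41.1% of all tested genes, with a median log2 difference of 0.02. Among the ribosome-building genes *Nop58* (0.16, SE 0.03; a call lost with limma run without a trend) rose, *Npm1* (−0.38, SE 0.05) fell, and *Ncl* had 0.04 (SE 0.04). *Cdk4* (0.38, SE 0.04) and *Ccnd2* (1.19, SE 0.22), which drive entry into the cell cycle, were higher, and so were *Hk2* (hexokinase, 0.41, SE 0.06), *Shmt2* (0.27, SE 0.04), *Apex1* (0.29, SE 0.06) and *Tert* (0.38, SE 0.08). *Ldha*, which makes lactate, went from 104.47, 81.12 and 97.54 FPKM to 26.71 and 32.31 FPKM (log2 difference −1.67, SE 0.12; adjusted p = 0.00052). *Cad* and *Srm*, of nucleotide and polyamine synthesis, and *Nme1* were lower by 0.27 to 0.36 on the log2 scale. The call of *Tert* was lost without WT sample 3 or KO sample 2, that of *Apex1* without KO sample 1, and that of *Srm* without WT sample 2 or WT sample 3. The difference of *Srm* was −0.50 without KO sample 1 and −0.22 without KO sample 2. *Npm1* and *Nme1* are on chromosome 11 and turned to 0.10 and 0.21 when its median was subtracted, *Nme1* then being called higher. *Hk2* and *Ccnd2* are on chromosome 6 and stayed called, at 0.24 and 1.02, when its median was subtracted.

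**Figure D5:**
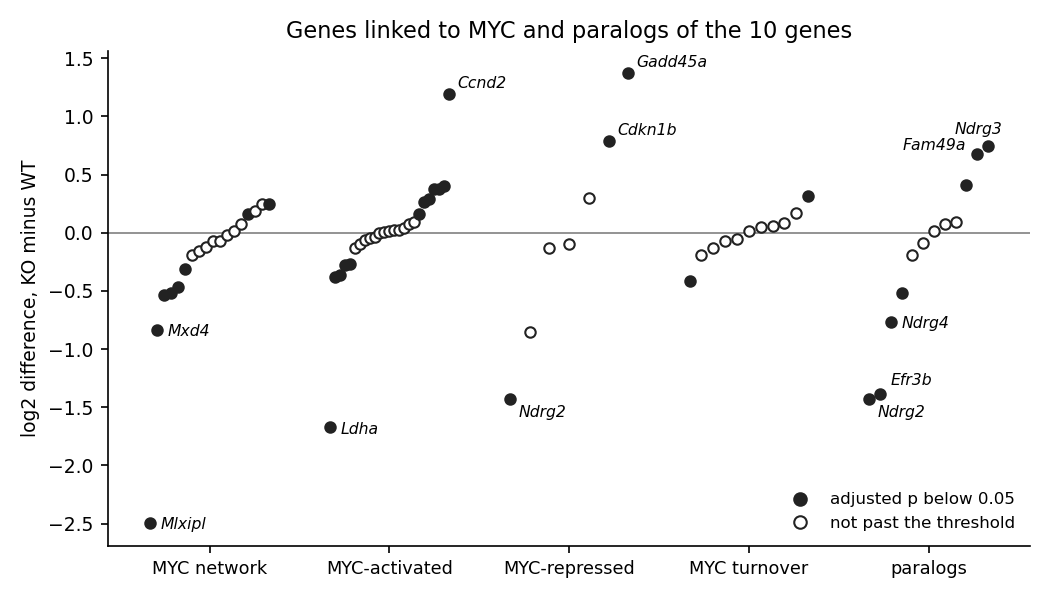
Log2 difference in FPKM (KO minus WT) of each tested gene in 5 lists, ordered by value within a list, without the 10 genes themselves. Filled points passed the threshold of 0.05 on the adjusted p (limma) and open points did not. Filled points lie on both sides of 0 in all 5 lists, from *Mlxipl* at −2.5 to *Gadd45a* at 1.37.

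Of 7 tested genes known to be repressed by MYC, besides *Ndrg1*, 2 were called higher, 1 lower and 4 not at all, 42.9% called against 41.1% of all tested genes. *Cdkn1b*, the p27 inhibitor of cyclin-dependent kinases, had 4.30, 4.57 and 4.86 FPKM in WT and 7.6 and 8.38 FPKM in KO (log2 difference 0.79, SE 0.08; adjusted p = 0.00092). *Gadd45a*, a growth arrest gene, had 2.65, 3.65 and 3.32 FPKM in WT and 7.14 and 9.84 FPKM in KO (log2 difference 1.37, SE 0.18; adjusted p = 0.0022). *Cdkn1b* and *Gadd45a* also lie on chromosome 6 and stayed called, at 0.62 and 1.20, with its median subtracted. *Ndrg2* moved the other way, from 2.26, 1.75 and 2.29 FPKM to 0.82 and 0.62 FPKM (log2 difference −1.42, SE 0.17; adjusted p = 0.0017).

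Of 11 genes that set the stability of the MYC protein 1 was called higher and 1 lower, 18.2% against 41.1% of all tested genes. *Gsk3b*, the kinase that marks MYC for degradation and a target of the inhibitor in the medium, had 0.31 (SE 0.05; adjusted p = 0.0031), and the deubiquitinase *Usp28* had −0.41 (SE 0.08; adjusted p = 0.0090), a call lost without KO sample 2. *Fbxw7*, the ubiquitin ligase subunit that binds the marked protein, had 7.02 to 7.46 FPKM in WT and 7.17 and 7.41 FPKM in KO. *Usp36*, on chromosome 11, was not called (−0.13, SE 0.07) but was called higher, at 0.35, with the chromosome median subtracted. MYC protein was not measured in the data analysed here.

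Relatives of the 10 genes elsewhere in the genome gave a comparison by sequence family. Of 12 tested paralogs 3 were called higher and 4 lower, 58.3% against 41.1% of all tested genes, with a median log2 difference of −0.04. *Fam49a* (0.68, SE 0.13), *Ndrg3* (0.74, SE 0.08) and *Khdrbs1* (0.41, SE 0.05) were higher, in the direction of *Fam49b*, *Ndrg1* and *Khdrbs3*. *Efr3b* (−1.38, SE 0.15), *Ndrg2*, *Ndrg4* (−0.77, SE 0.12) and *Mycl* were lower. *Asap2* (0.08, SE 0.07), *Asap3* (0.01, SE 0.13), *Phf20* (0.09, SE 0.04) and *Fam84a* (−0.09, SE 0.21) were not called.

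The genes whose 5 values were most like those of *Myc*, by Euclidean distance between centred log2 profiles among 10663 genes whose mean reached 1 FPKM, were *Tmem144*, *Cxx1b*, *Gm867*, *Hoxc12* and *Htra1*, at distances of 0.21 to 0.24. *Hoxc12* is also on chromosome 15, outside the stretch. *Pvt1* came at rank 28 with a distance of 0.40. For *Pvt1* the nearest were *Saa3* at 0.05, *Polr3gl*, *Spats2l*, *Bvht* and *Il2rg* at 0.15, all on other chromosomes, with *Ndrg1* at rank 76 and *Myc* at rank 268. With 5 libraries in 2 groups such likeness is largely that of the step between the genotypes. No promoter, protein or microRNA sequence of the 10 genes was used here.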

How the data were processed

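Gene expression was measured by RNA-seq in 3 WT and 2 KO libraries and ZFP57 binding by ChIP-seq. The authors deposited FPKM per gene, rounded to 2 decimals, for reads mapped to mm10, and ZFP57 peaks as positions without a score, pooled from calls in at least 2 WT replicates. The submitters' processing notes name FastQC 0.11.5, Trim Galore 0.2.7, BWA 0.6.2, Picard, MACS2 2.1.0 and STAR 2.5.2, without roles. The counter, annotation and depth are not given in the sources used here. The making of the hybrid list is not described there.

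Of 24409 genes, 23193 were placed on GRCm38 by RefSeq symbol, 1096 by a synonym and 120 not at all. Genes averaging 0.1 FPKM or more entered a limma 3.58.1 fit on log2(FPKM + 0.1) (eBayes with trend, R 4.3.3), with Benjamini-Hochberg adjustment over all tested genes and a threshold of 0.05. The p-values measure the spread between these libraries. An exact permutation of 3 against 2 libraries cannot go below p = 0.1. The fit was tested on simulated libraries. Peaks were compared with gene spans within 20 kb, and TGCCGC was sought on both strands. Python 3.11.15 was used.

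The 10 genes and all lists were chosen with earlier results of these data known. Named are the 10 genes, *Zfp57*, tested genes of the stretch, list members, and the 5 profiles nearest to *Myc* and to *Pvt1*. The genes just outside the bounds were added after their values were seen. Alternatives cover pseudocount, filter, scaling, variance model, a replicate block, chromosome medians, single libraries, thresholds, bounds and windows. KAP1 and H3K9me3 data were not analysed here.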

Additional observations from a re-analysis of the deposited data

How the results depend on the processing

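The log2 differences of the 10 genes kept their sign under all alternatives that gave a value. *Fam84b*, with a mean under 1 FPKM, had no value at that filter. The range was 0.85 to 1.30 for *Myc*, 0.66 to 0.97 for *Pvt1* and 0.90 to 1.87 for *Fam84b*, lowest in each with a pseudocount of 1, and 0.05 to 0.13 for *Zfat*. Other weakly expressed genes also moved with the pseudocount. At 1 and 0.01 the differences were 0.417 and 1.485 for *Ccnd2* and 0.186 and 1.475 for *9930014A18Rik*. They were −1.22 and −2.85 for *Mlxipl*, and −0.53 and −1.67 for *Efr3b*. The median over the 10 genes was 0.46, and 0.42 to 0.53 with single libraries left out. The median over the 13 tested genes, 0.73, was 0.45 with a pseudocount of 1, 0.46 at a mean of 1 FPKM or more, 0.46 for 59 to 71 Mb, 0.49 for 61 to 69 Mb, and 0.50 to 0.78 with single libraries left out (lowest without KO sample 2). With 6005 genes called in all, an adjusted p under 0.01 left 3292, and a log2 difference of at least 1 left 1174. This size left 2 of the 10 genes (9 in the fit reported), 1 of 8 network genes, 2 of 12 activated genes, 0 of 2 turnover genes and 2 of 7 paralogs. Of the genes between the bounds outside the 10, 1 was called, 0 at either stricter threshold, at a mean of 1 FPKM or more or for 61 to 69 Mb, 5 for 59 to 71 Mb, and 0 to 1 with single libraries left out. *Khdrbs3* was also not past the threshold with the chromosome median subtracted or without any single library but WT sample 2. Turnover genes called were 1 to 3 and the 10 genes past the threshold 6 to 9 with single libraries left out. An exclusion that leaves 1 KO library assumes that it varies like the WT libraries. With the chromosome median subtracted, *Mnt* (0.17), *Mlx* (0.016), *Npm1* (0.10), *Nme1* (0.21) and *Max* (−0.024) changed sign, and 5 network genes were called. *Max* ranged from −0.021 to 0.049 and *Mga* from −0.062 to 0.029 with single libraries left out. Where a change has no cause stated by its own construction, the cause was not tested. Only 2 replicate numbers occur in both genotypes, and the deviations of same-numbered libraries correlated at −0.07 and −0.04, so the numbers were not taken to pair the samples. With a replicate block 3010 genes were called in all, 5 of the network, 1 of the turnover list and 7 of the 10 genes (*Phf20l1* and *Khdrbs3* no longer passing), and the median over the 10 genes was 0.46. Among the other named genes it ended the calls of *9930014A18Rik*, *Mycl*, *Mxd4*, *Wdr5*, *Nop58*, *Srm*, *Nme1*, *Tert* and *Usp28*, and *Mir30b* passed the threshold (1.71). Of the peaks in the stretch, 0 were in the hybrid list, and 2 lay within 59 to 71 Mb. Depth is unknown, so values near 0.1 FPKM may rest on few fragments.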
